A study of Mus musculus with 10 samples.

Results

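Thapsigargin, an inhibitor of the calcium pump of the endoplasmic reticulum (ER), was added to LPS in dendritic cells that lack CD14, and the genes that changed are described here. The comparison uses 4 of the 10 arrays of the series: CD14-deficient cells with LPS and thapsigargin at 48 h and at 60 h, set against CD14-deficient cells with LPS alone at the same times. It was made over the 7474 of 12393 genes whose signal was above the pooled median of all values on at least 2 of the 10 arrays. The series was designed to find apoptosis genes controlled by the transcription factor NFAT in LPS-activated dendritic cells. All cells were grown from the bone marrow of C57BL/6 mice of 6-8 weeks, either wild type or Cd14-/-, in medium with supernatant of B16 tumour cells transduced with GM-CSF, and were used after 7 to 10 days when over 90% carried CD11c. LPS was smooth LPS at 1 µg/ml and thapsigargin was at 50 nM. Each genotype also had 1 unstimulated array, harvested 24 h after plating. Each condition at each time was 1 array, and the labels do not say how many mice or cultures each came from. All 4 arrays of the comparison came from Cd14-/- cells, and all had LPS. No array had thapsigargin without LPS.

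CD14 binds LPS at the cell surface and passes it to the receptor complex of TLR4 and MD-2. In dendritic cells it is also known to be needed for an LPS-induced entry of calcium that activates calcineurin, the phosphatase that moves NFAT into the nucleus, and for uptake of TLR4 into endosomes, from which type I interferon is induced. Thapsigargin empties the calcium store of the ER. That opens store-operated calcium channels in the plasma membrane, and it also disturbs protein folding in the ER, which sets off the unfolded protein response and the integrated stress response. Both kinds of signal can therefore act in cells given thapsigargin.

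The regions before the start sites of 4 genes that rose are printed because they hold the elements that the interferon and ER chaperone genes described below are known for. They are the 250 bases before the start site, 5′ to 3′ on the gene's strand, from RefSeq on GRCm38.p6: Ifit3 at chr19:34583279-34583528 on the plus strand, Oas3 at chr5:120777660-120777909 on the minus strand, Hspa5 at chr2:34771840-34772089 on the plus strand and Pdia6 at chr12:17266339-17266588 on the plus strand. Capitals mark the interferon response element (GAAANNGAAA or its reverse complement) in Ifit3 and Oas3, and the ER stress element (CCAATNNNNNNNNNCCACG) in Hspa5 and Pdia6.
Ifit3: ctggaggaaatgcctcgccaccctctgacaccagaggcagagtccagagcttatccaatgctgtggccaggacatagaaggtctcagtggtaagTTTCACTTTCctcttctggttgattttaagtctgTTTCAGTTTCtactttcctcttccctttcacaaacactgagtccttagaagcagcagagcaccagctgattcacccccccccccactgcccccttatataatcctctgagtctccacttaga
Oas3: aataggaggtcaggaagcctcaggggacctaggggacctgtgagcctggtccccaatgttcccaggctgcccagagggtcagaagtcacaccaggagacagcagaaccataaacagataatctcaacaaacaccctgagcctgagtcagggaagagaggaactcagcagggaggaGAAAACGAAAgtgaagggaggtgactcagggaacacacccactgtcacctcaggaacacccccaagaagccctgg
Hspa5: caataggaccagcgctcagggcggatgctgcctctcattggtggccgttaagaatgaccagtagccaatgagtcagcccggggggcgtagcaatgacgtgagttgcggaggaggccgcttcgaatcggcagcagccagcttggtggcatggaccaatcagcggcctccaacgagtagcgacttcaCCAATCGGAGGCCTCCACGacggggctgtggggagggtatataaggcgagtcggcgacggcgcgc
Pdia6: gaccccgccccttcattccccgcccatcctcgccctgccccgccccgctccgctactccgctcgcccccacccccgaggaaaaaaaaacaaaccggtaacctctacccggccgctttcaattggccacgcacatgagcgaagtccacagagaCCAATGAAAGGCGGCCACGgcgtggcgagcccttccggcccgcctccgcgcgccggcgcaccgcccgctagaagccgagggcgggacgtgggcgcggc

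In Ifit3 the interferon elements began 156 and 122 bases before the start site, and in Oas3 the element began 75 bases before it. The ER stress element began 65 bases before the start site in Hspa5 and 98 bases before it in Pdia6. Both strands were searched in windows of 300 bases, from 250 before to 50 after the start. A match to the interferon element was in 3.44% of all 32851 RefSeq promoters of that length, and a match to the ER stress element was in 0.119%. An NFAT core (GGAAA) overlaps an interferon element wherever a G stands before it, and the core was in 61.3% of all promoters.

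The array labelled CD14-deficient LPS 48 h stood apart from the others. In a principal component analysis its score on the second component, which held 17.3% of the variance, was 60.42, while the other 9 arrays were between -25.02 and 5.12. Its 3 probe sets for 18S ribosomal RNA read 114 to 385, against 6642 to 10020 on the CD14-deficient LPS 60 h array and 1762 to 5260 on the arrays with thapsigargin. It also had the lowest yield of labelled cRNA, 15 µg, against 44.6 µg for the LPS array at 60 h and 23.4 and 20.01 µg for the thapsigargin arrays. Its RNA integrity number was not low: 10.0, against 8.6 for the LPS array at 60 h and 9.2 and 8.4 for the thapsigargin arrays. In wild-type cells the LPS 60 h array had low 18S signals as well, 217 to 685. Genes at least 2-fold apart between 48 and 60 h numbered 1297 in CD14-deficient LPS cells and 189 once thapsigargin was present. The 60 h change is the value without the array that stood apart, and it is given for the gene lists and, as a change or as signals at both times, for the genes described most closely; for the other genes only the change over both times is given.

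The cells' identity was checked on marker lists. All 16 dendritic cell markers on the array were above the lower limit of the scale on at least 1 of the 10 arrays, and their signals summed to between 61368 and 88378 on the 4 arrays. Macrophage markers were also present, with a sum of 21941 on the LPS 48 h array, 50386 on the LPS 60 h array, and 33616 and 29324 with thapsigargin. Cd3e, Cd3g, Cd4, Cd8b1, Gzmb, Ncr1 and Nkg7, of 10 T and NK cell markers, were at the lower limit on these 4 arrays. Cd14 itself read 7.35 and 3.86 with LPS and 2.22 and 1.85 with thapsigargin in CD14-deficient cells, all under the lower limit of 13.4. The 4 stimulated wild-type arrays had Cd14 signals from 15538 to 17729.

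Thapsigargin changed similar numbers of genes in each direction. Signals are scaled MAS5 intensities, changes are log2 differences, and the error after ± is the standard error from limma. A gene is called when its Benjamini-Hochberg adjusted p from limma was under 0.05 over the 7474 genes. By this rule 256 genes rose, 3.43% of those tested, and 239 fell, 3.2%. Without the model, 207 genes (2.77%) were at least 2-fold higher at both times and 301 (4.03%) were at least 2-fold lower at both. Of the called genes, 169 were among the former and 189 among the latter. At 60 h alone, 539 genes (7.21%) were at least 2-fold higher and 661 (8.84%) at least 2-fold lower. At 48 h alone the counts were 662 and 924, and 48 genes had 2-fold changes of opposite sign at 48 and 60 h. The median change over all tested genes was 0.00, with -0.03 at 48 h and 0.03 at 60 h. On the values as deposited, without scaling, these medians were -0.219 and 0.157.

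**Figure D1:**
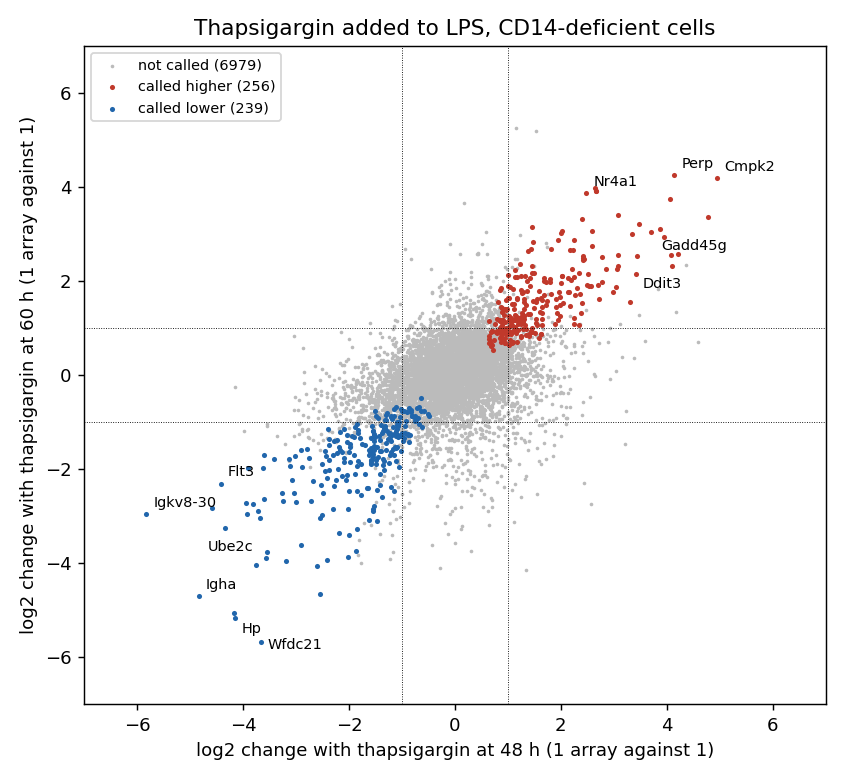
Log2 change with thapsigargin at 48 h (horizontal axis) and at 60 h (vertical axis) in CD14-deficient cells under LPS, for 7474 genes, with the 256 genes called higher in red, the 239 called lower in blue and 2-fold lines dotted. Called genes lie along the diagonal, with Cmpk2 and Perp farthest at the upper right and Igha, Hp and Wfdc21 at the lower left.

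These calls rest on few arrays. No condition was repeated, so the error in the model is the departure of the 4 stimulated conditions from a common shift between 48 and 60 h, and the p-values do not cover the spread between mice or cultures. The fit called 2150 genes without the CD14-deficient LPS 48 h array and 2894 without the LPS 60 h array. It called 201 without the wild-type LPS 48 h array, 198 without the wild-type LPS 60 h array, and 0 without any 1 of the 4 thapsigargin arrays of either genotype, where between 888 and 1586 genes had an unadjusted p under 0.05. Without both CD14-deficient 48 h arrays it called 561 genes higher and 629 lower. The genes nearest the threshold were Slc39a1 and Atpif1 inside it, with changes of -0.79 and -0.90, and Tmem183a and Slc7a7 outside it, at 0.96 and -1.35.

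The series followed up 4 genes of apoptosis and its control, and 3 of them rose. Gadd45g, a stress-induced growth arrest gene, read 256 and 507 with LPS at 48 and 60 h and 3333 and 4154 with thapsigargin. Both thapsigargin arrays were far above both LPS arrays, and the LPS arrays were below the unstimulated CD14-deficient array at 550. The change was 3.37 ± 0.31 (adjusted p = 0.0109), and 3.70 at 48 h and 3.03 at 60 h. In wild-type cells Gadd45g was already high with LPS alone, at 3115 and 2547, and read 3267 and 3447 with thapsigargin.

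Ddit3, which encodes the proapoptotic factor CHOP of the ER stress response, read 479 and 1102 with LPS and 5108 and 4915 with thapsigargin. The change was 2.79 ± 0.37 (adjusted p = 0.0184). The groups did not overlap, and the LPS 48 h array was close to the unstimulated 447, while the LPS 60 h array was above it. Wild-type cells had 3545 and 3223 with LPS and 5646 and 4816 with thapsigargin, so with thapsigargin the 2 genotypes ended at similar signals.

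Nr4a1, an orphan nuclear receptor known as a calcium-induced early gene, read 61.5 and 29.8 with LPS and 344 and 436 with thapsigargin. The change was 3.18 ± 0.45 (adjusted p = 0.0202), 2.48 at 48 h and 3.87 at 60 h. Both LPS arrays were below the unstimulated 95.1, and both thapsigargin arrays were above every wild-type array but one, the wild-type thapsigargin 60 h array at 352, which lay between them. Tia1, which encodes an RNA-binding protein of stress granules, did not pass. It read 583 and 359 with LPS and 202 and 223 with thapsigargin, a change of -1.11 ± 0.47 (adjusted p = 0.188). Its other 2 probe sets gave -1.12 and -2.0.

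**Figure D2:**
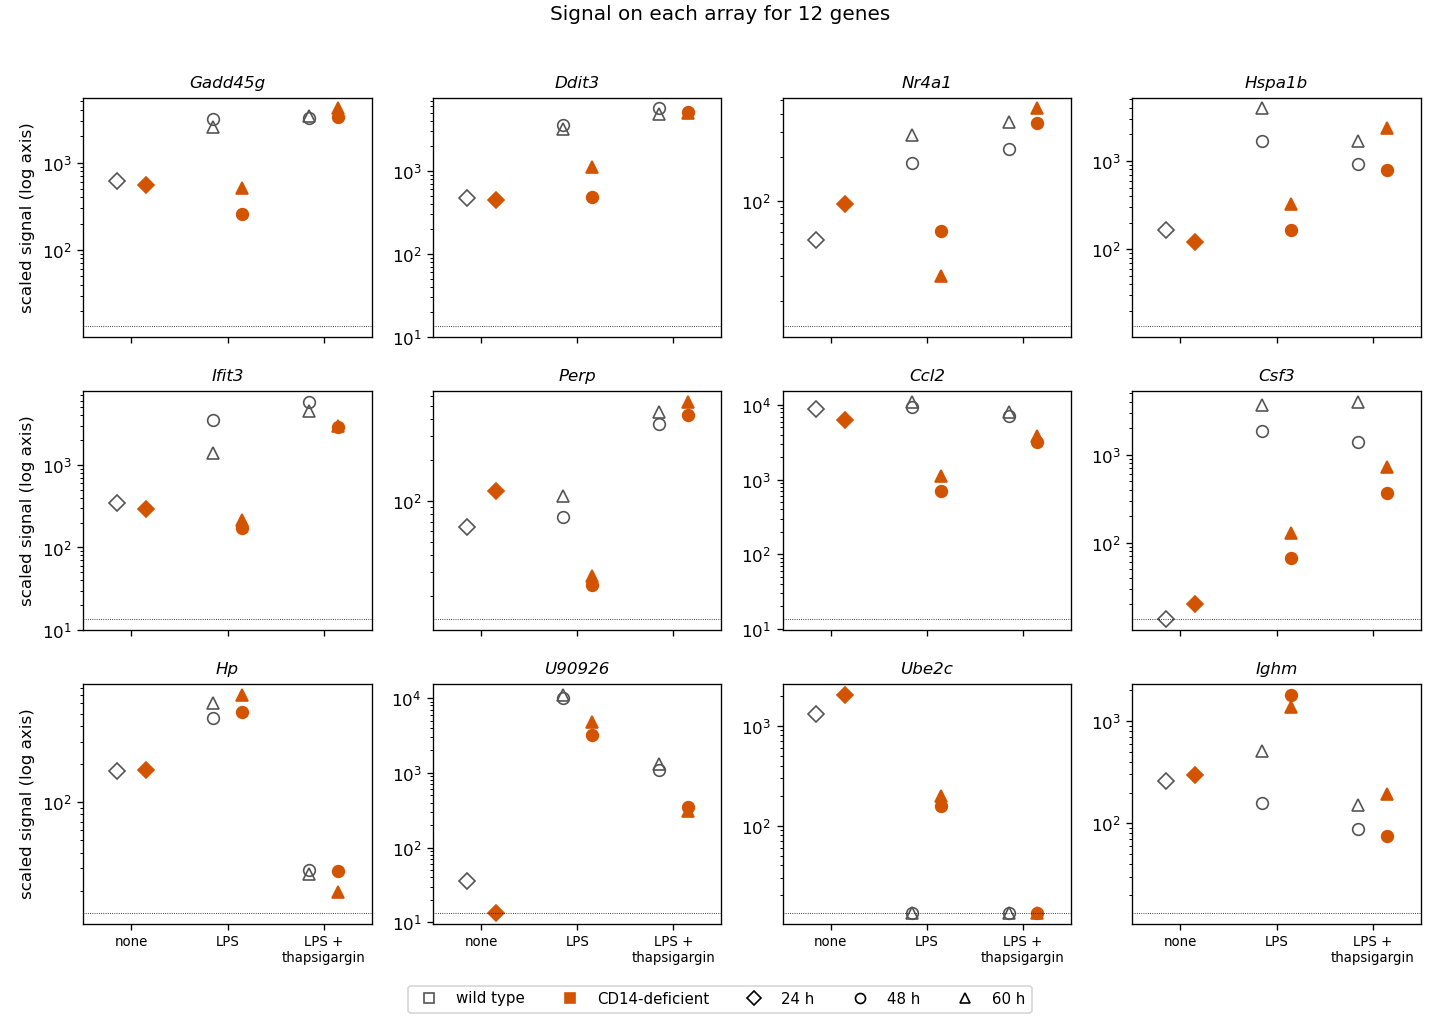
Scaled signal (log axis) of 12 genes on each of the 10 arrays, by treatment, with open grey symbols for wild-type and filled orange symbols for CD14-deficient cells, diamonds for 24 h, circles for 48 h and triangles for 60 h, and the lower limit of 13.4 dotted. In Gadd45g, Ddit3, Nr4a1, Ifit3 and Perp the CD14-deficient arrays with thapsigargin sit with or near those of wild-type cells with thapsigargin, and in Hp and U90926 both genotypes are low with thapsigargin.

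Of 36 tested genes of ER protein folding, 9 were called higher (25%, against 3.43% of all genes), 0 lower and 27 were not called; the median change was 0.75 against 0.00 over all genes, with 0.84 at 48 h and 0.41 at 60 h. Hspa5, the main ER chaperone BiP, read 7954 and 7564 with LPS and 17789 and 14081 with thapsigargin, and its change was 1.03 ± 0.12 (adjusted p = 0.0165). Both thapsigargin arrays were above both LPS arrays and above the unstimulated 11868. Pdia6, a disulfide isomerase, went from 1503 and 1813 to 5540 and 3852, a change of 1.48 ± 0.23. Hyou1, a large chaperone of the ER, went from 839 and 875 to 2431 and 1887, a change of 1.32 ± 0.18. Manf, a small secreted stress protein of the ER, went from 3324 and 2385 to 8441 and 6741, a change of 1.42 ± 0.16. In all 4 genes the groups did not overlap. They were chosen by p in this comparison, which favours such a gap, and its share over all tested genes was not counted.

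Without the filter on low signals 0 of 37 members were called, and with array weights 4 of 36. The other called members of the ER list were Creld2 (1.71), Syvn1 (1.21), Selenos (1.04), Hsp90b1 (1.01) and Dnajc3 (0.94). Syvn1 encodes the ubiquitin ligase HRD1, which removes misfolded proteins from the ER, and Hsp90b1 encodes the chaperone GRP94. Xbp1, whose spliced RNA encodes a main factor of the unfolded protein response, had a change of 0.08 and was not called. Spliced and unspliced Xbp1 RNA were not separated here. Among the 7 called members with a promoter in the RefSeq table, Creld2, Dnajc3, Hsp90b1, Hspa5, Pdia6 and Syvn1 held the ER stress element, 6 of 7 promoters (85.7%), against 10 of 35 promoters (28.6%) for all tested members of the list. Members with the element that were not called were Calr, Canx, Derl3 and Ero1b.

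Of 24 tested genes of the integrated stress response, 6 were called higher (25%, against 3.43% of all genes), 0 lower and 18 were not called, with a median of 0.89 (0.80 at 48 h, 0.86 at 60 h). Without the filter 1 of 27 was called higher, and with array weights 3 of 24. Atf4, the factor translated when eIF2α is phosphorylated, read 3211 and 3093 with LPS and 10074 and 9343 with thapsigargin, a change of 1.62 ± 0.13 (adjusted p = 0.0109). The 2 times were close to each other in both groups. Trib3, a pseudokinase induced by Atf4 and CHOP, went from 53.8 and 83.7 to 350 and 318, a change of 2.31 ± 0.32. Nupr1, a stress-induced nuclear protein, went from 287 and 430 to 1889 and 1319, a change of 2.17 ± 0.33. Cebpg, a partner of Atf4, and Slc3a2, a chain of an amino acid transporter, rose by 1.09 and 1.26. Asns, which encodes asparagine synthetase, had a change of 2.24 without being called.

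Of 14 tested heat shock genes and cytosolic chaperones, 4 were called higher (28.6%, against 3.43% of all genes) and 0 lower. The 4 were Hspa1a (2.67), Hspa1b (2.56), Dnajb1 (1.43) and Hsph1 (0.90). The list's median was 0.17, and 1 member was called with array weights and 2 of 17 without the filter. Hspa1b, the inducible Hsp70, read 164 and 321 with LPS and 780 and 2360 with thapsigargin, against 121 unstimulated. In wild-type cells it read 1683 and 3933 with LPS and 928 and 1678 with thapsigargin, so it was lower there with thapsigargin at both times. Hspa1a and Hspa1b are near-identical copies, and probe sets cannot separate them with certainty. For Dnajb1 the probe set used gave 1.43 and a second one, with a highest signal of 943, gave -0.10.

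The interferon response held the largest share of called genes of any list with more than 4 tested members. Of 42 tested members 20 rose (47.6%, against 3.43% of all genes) and 0 fell. It was 10 members with array weights, 0 of 43 without the filter on low signals, and 0 of 42 without any 1 of the 4 thapsigargin arrays. The median change was 1.11, with 1.10 at 48 h and 0.92 at 60 h, and at 60 h alone 20 members were at least 2-fold higher and 1 was at least 2-fold lower. Ifit3, an antiviral protein of the IFIT family, read 174 and 219 with LPS and 2906 and 2949 with thapsigargin. The 2 groups were far apart, the LPS arrays were below the unstimulated 295, and the change was 3.91 ± 0.39 (adjusted p = 0.0126). Cmpk2, a mitochondrial nucleotide kinase induced by interferon, read 55.4 and 113 with LPS and 1712 and 2061 with thapsigargin, against 237 unstimulated. Its change of 4.57 ± 0.54 (adjusted p = 0.0160) was the largest rise of all called genes.

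Other antiviral effectors followed the same pattern. Ifit2 went from 95.4 and 201 to 2609 and 2060, a change of 4.07 ± 0.57. Rsad2, which encodes viperin, went from 735 and 2176 to 13735 and 12989, a change of 3.40 ± 0.49. Ifit1 went from 470 and 676 to 5076 and 3913, a change of 2.98 ± 0.30. In Ifit1, Ifit2 and Rsad2 both thapsigargin arrays were above the LPS arrays and above the unstimulated arrays of both genotypes. These genes were named for their p or the size of their rise in this comparison. Isg20, an RNA exonuclease, went from 98.8 and 156 to 1670 and 916, and Oas3, a sensor that makes 2′-5′ oligoadenylates, from 324 and 340 to 1562 and 1099.

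Several regulators of the interferon system were among the called members. Irf7, the factor that amplifies type I interferon production, read 1241 and 1209 with LPS and 5705 and 4928 with thapsigargin, a change of 2.11 ± 0.25 (adjusted p = 0.0160). Stat2, which carries the signal of the type I interferon receptor, rose by 1.14, and Usp18, an inhibitor of that receptor, rose by 1.83. Oasl1, known to limit translation of Irf7, rose by 2.10. The immunity-related GTPases Igtp, Irgm1 and Irgm2 rose by 1.60, 1.29 and 1.07, and the chemokines Cxcl9 and Cxcl10 by 2.38 and 1.19. The remaining called members were Oasl2, Rtp4, Trim30a and Zbp1, between 0.79 and 1.42.

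Not all interferon genes passed. Mx2 had a change of 3.21 that was uneven, 1.17 at 48 h and 5.26 at 60 h, and was not called. Mx1 had -1.11, Socs1 -0.84 and Gbp2 -0.43, and the immunoproteasome genes Psmb8 and Psmb9 had 0.01 and 0.16. None of these passed. Gbp2b, a guanylate-binding protein that was not on the list, fell from 180 and 221 to 11.5 and 6.55, at least 14.9-fold. In wild-type cells Gbp2b read 65.2 and 42.5 with LPS and 5.90 and 2.23 with thapsigargin.

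**Figure D3:**
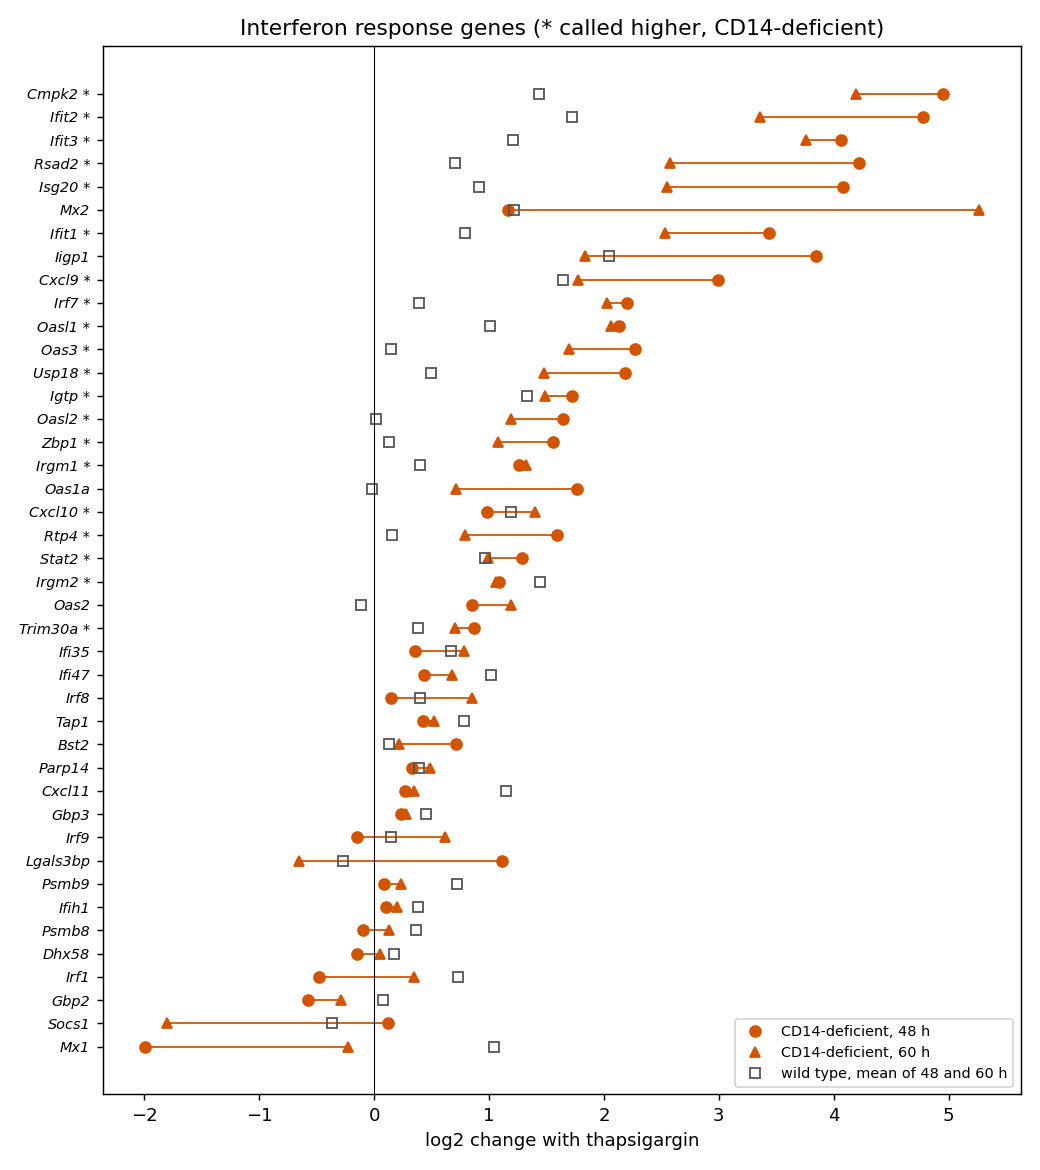
Log2 change with thapsigargin of the 42 tested interferon response genes, with orange circles for CD14-deficient cells at 48 h, orange triangles for 60 h joined by a line, and open grey squares for the mean of both times in wild-type cells. The 20 genes called higher carry a star, and in most of them the square lies to the left of the orange symbols.

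Promoters of the called interferon genes often held the interferon element shown above for Ifit3 and Oas3. It was in 11 of the 21 promoters of called members (52.4%), from 10 of 17 genes with a promoter in the table, and in 17 of 40 promoters of all tested members (42.5%). Among all genes called higher it was in 7.25% of promoters, among all called lower in 6.14%, and among tested genes in 3.36%. The NFAT core was in 61.8% of promoters of genes called higher and in 58.8% of those called lower, against 59% of promoters of tested genes.

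The called interferon genes were set beside the other conditions, which share the arrays of the comparison. The median difference of CD14-deficient from wild-type LPS cells over the 20 genes was -1.86, and that of CD14-deficient LPS plus thapsigargin from wild-type LPS cells was 0.08. All 20 were within 2-fold of wild-type LPS cells once thapsigargin was present, and 3 of 20 were without it. Against wild-type cells with LPS and thapsigargin the median difference was -0.68. In 6 of the 20 genes both CD14-deficient LPS arrays were below both unstimulated arrays, and in all 20 both thapsigargin arrays were above them. Of all 256 genes called higher, 138 were within 2-fold of wild-type LPS cells without thapsigargin and 218 with it. Such counts were not made over all tested genes. The genes were chosen for a rise between these same CD14-deficient arrays. That by itself favours a gap that narrows, so these values do not show a return to wild-type levels.

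Inflammatory genes were mixed. Of 44 tested members, 9 rose (20.5%, against 3.43% of all genes), 2 fell (4.55%, against 3.2%) and 33 did not pass. The median was 0.25 (0.35 at 48 h, 0.05 at 60 h). Without the filter 3 were called higher and 0 lower, and with array weights 5 and 1. The chemokine Ccl2, which attracts monocytes, read 705 and 1132 with LPS and 3154 and 3861 with thapsigargin, a change of 1.97 ± 0.17 (adjusted p = 0.0109). All 4 signals were below the unstimulated 6312, with the LPS arrays lowest. Ccl7, its neighbour in function, went from 62.0 and 119 to 518 and 568, a change of 2.66 ± 0.34. The neutrophil chemokines Cxcl1 and Cxcl2 rose by 1.33 and 1.14.

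Growth factors and a prostaglandin enzyme rose too. Csf3, which encodes G-CSF, read 67.1 and 130 with LPS and 362 and 726 with thapsigargin, a change of 2.45 ± 0.23 (adjusted p = 0.0109). Both were below wild-type LPS cells, at 1837 and 3656. Ptgs2, which encodes cyclooxygenase-2, read 2839 and 3714 with LPS and 10642 and 11469 with thapsigargin, a change of 1.77 ± 0.15. With thapsigargin it was close to wild-type LPS cells, at 11574 and 12238. Il23a, a subunit of interleukin-23, rose by 2.25, Rel, an NF-κB subunit, by 2.01, and Csf1, the macrophage growth factor, by 1.67. Ccrl2, a chemoattractant receptor, went from 1264 and 1004 to 6766 and 5814, a change of 2.48 ± 0.14 (adjusted p = 0.0078).

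The 2 inflammatory genes that fell were Ccl17 and Saa3. Ccl17, a chemokine that attracts T cells, read 16176 and 14663 with LPS and 5649 and 4829 with thapsigargin, a change of -1.56. Saa3, an acute phase protein, went from 9570 and 10406 to 3743 and 2747, a change of -1.64 ± 0.20 (adjusted p = 0.0165). Tnf, Il1b and Il6, cytokines of the early LPS response, had changes of -0.18, 0.12 and 0.87 and were not called. Nos2, the inducible nitric oxide synthase, was under the lower limit on the LPS 48 h array, had 2.64 and was not called either.

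Among targets of p53 and growth arrest genes, 7 of 22 rose (31.8%, against 3.43% of all genes) and 0 fell (against 3.2%). The median was 0.64 (0.74 at 48 h, 0.66 at 60 h). With array weights 3 rose, and without the filter 4 of 23. Perp, a membrane protein induced by p53, read 24.2 and 28.2 with LPS and 428 and 540 with thapsigargin. Both LPS arrays were below the unstimulated 119, and the change of 4.20 ± 0.22 (adjusted p = 0.0078) was the second largest rise. Wild-type cells went from 76.7 and 108 to 371 and 453. Phlda3, an inhibitor of Akt, went from 579 and 642 to 1851 and 2102, a change of 1.69 ± 0.16. Gadd45a and Gadd45b rose by 1.31 and 1.22, Aen, a nuclease induced by p53, by 1.36, Mdm2, the ligase that degrades p53, by 0.85, and Cdkn1a, the cell cycle inhibitor p21, by 0.80.

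No gene of the proapoptotic Bcl2 family passed, of 8 tested, and their median was 0.12. With the probe set of largest variance for each gene, 1 of the 8, Bcl2l11, was called higher. Bbc3, which encodes Puma, had 0.66 ± 0.26, and Pmaip1, which encodes Noxa, had 0.00 ± 0.40 with opposite signs at the 2 times (-0.65 and 0.65). Bad, Bak1, Bid and Bnip3 had changes of -0.04, 0.30, 0.24 and 0.28, and Bok, under the lower limit on the LPS 48 h array, had -0.41. For Bcl2l11, which encodes Bim, the probe set used gave -0.59 ± 0.43, from 3451 and 1045 to 1733 and 924. A second probe set of Bcl2l11, with a highest signal of 947, gave 2.31 (1.62 at 48 h and 2.99 at 60 h), and the other 3 gave -1.14, -0.23 and -0.20. The direction for Bcl2l11 was thus not settled by this array.

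Of 11 death receptor genes 0 were called. Of 17 caspases and execution genes 1 was called (5.88% lower, against 3.2% of all genes): Pycard, the adaptor of the inflammasome, which fell from 4150 and 4966 to 1982 and 2046, a change of -1.17 ± 0.17. Of 16 survival genes 2 rose (12.5%, against 3.43% of all genes) and 1 fell (6.25%, against 3.2%). The kinases Pim1 (1.00 ± 0.14) and Pim3 (1.74 ± 0.20) rose, and Birc5, which also acts in cell division, fell. Mcl1 and Bcl2l1 had 0.06 and -0.15 and were not called.

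Of 39 tested cell division genes, 10 were called lower (25.6%, against 3.2% of all genes), 1 higher and 28 were not called; the median was -1.04, with -1.26 at 48 h and -0.93 at 60 h. Without the filter 5 of 40 were called lower, and with array weights 4 of 39. With a signal above the pooled median required on 6 arrays, 17 members were left. Of these 2 were called lower and 1 higher, and the median was -0.48. At 60 h alone 18 members were at least 2-fold lower and 1 was at least 2-fold higher. Ube2c, the ubiquitin-conjugating enzyme of the anaphase-promoting complex, read 159 and 198 with LPS and 1.05 and 7.65 with thapsigargin, below the lower limit of the scale, so the fall was at least 13.3-fold (adjusted p = 0.0109). The unstimulated array read 2034. Ccna2, cyclin A2, went from 197 and 244 to 29.8 and 38.1, a change of -2.70 ± 0.24.

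Genes of DNA synthesis were among the called members. Rrm2, a subunit of ribonucleotide reductase, went from 303 and 290 to 23.0 and 39.3, a change of -3.30 ± 0.29. Pclaf, which binds the replication clamp PCNA, went from 774 and 610 to 50.1 and 92.0, a change of -3.34 ± 0.34. Mki67, which encodes the proliferation antigen Ki-67, went from 417 and 358 to 52.0 and 55.3, a change of -2.85, and Birc5 from 146 and 140 to 27.1 and 42.4. Tk1, thymidine kinase, was under the lower limit on both thapsigargin arrays and fell at least 4.7-fold, and Bub1, Nusap1 and Stmn1 fell too, with changes of -2.18, -2.09 and -1.62. In these 10 genes both LPS arrays were already below both unstimulated arrays. Cenpa, a histone variant of the centromere, was the 1 member that rose, by 1.61. Fewer dividing cells and less of these RNAs per cell cannot be told apart in bulk RNA, here or for any gene below.

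**Figure D4:**
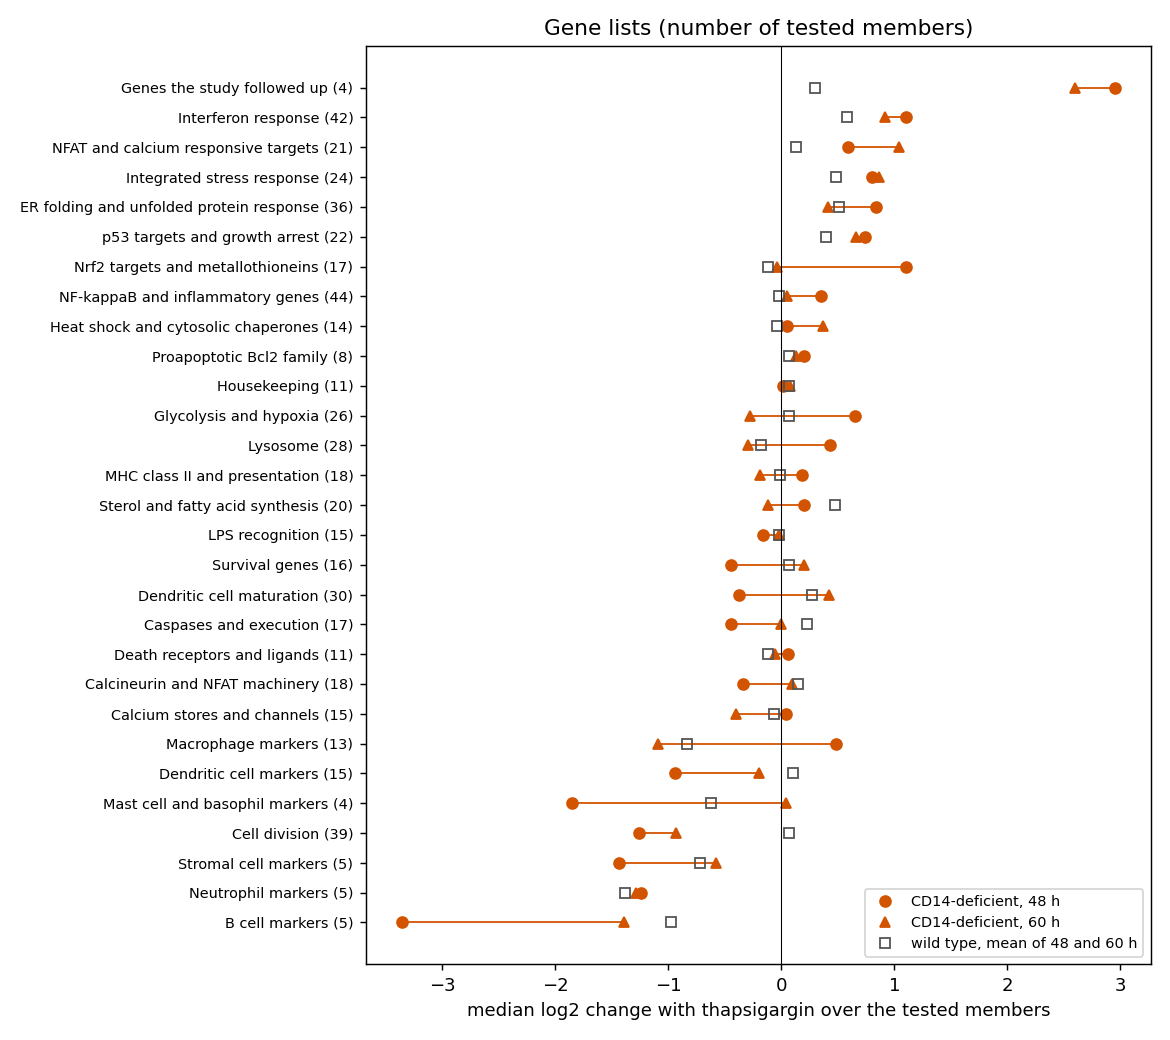
Median log2 change with thapsigargin over the tested members of each gene list (number in brackets), with orange circles for CD14-deficient cells at 48 h, orange triangles at 60 h joined by a line, and open grey squares for the mean of both times in wild-type cells. Interferon, stress and p53 lists lie to the right in CD14-deficient cells, cell division lies at -1.26 and -0.93 with wild type at 0.07, and the lists of B cell, mast cell and macrophage markers differ most between 48 and 60 h.

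Some of the largest falls were in acute phase and granule genes. Hp, which encodes haptoglobin, read 512 and 699 with LPS and 28.7 and 19.4 with thapsigargin, a change of -4.66 ± 0.32 (adjusted p = 0.0101). Both thapsigargin arrays were below the unstimulated 180. Wfdc21, a small secreted protein of the whey acidic family, went from 2636 and 4697 to 207 and 91.6, a change of -4.67 ± 0.48. U90926, a transcript that LPS raised strongly, went from 3204 and 4783 to 354 and 308, a change of -3.57 ± 0.23. Gpr84, a receptor for medium-chain fatty acids, went from 308 and 590 to 26.2 and 43.5, a change of -3.66 ± 0.31. Mmp9, a matrix protease, went from 177 and 339 to 30.3 and 8.67; the 60 h signal was under the lower limit of 13.4, so its change of -3.60 ± 0.67 is a lower bound on the size of the fall.

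These 5 genes were also low in wild-type cells given thapsigargin. Hp there went from 462 and 607 to 29.1 and 27.3, and U90926 from 10137 and 11000 to 1104 and 1328. Wfdc21 went from 1515 and 1779 to 150 and 90.1, Gpr84 from 161 and 467 to 38.3 and 54.2, and Mmp9 from 142 and 414 to 21.1 and 16. Of the 5, Hp and U90926 passed the test in wild-type cells (adjusted p = 0.0315 for both). Among neutrophil markers, S100a8, a calcium-binding alarmin, fell from 1242 and 1812 to 525 and 499, and Camp, which encodes a cathelicidin, fell from 345 and 356 to 85.0 and 49.3. The other 3 tested neutrophil markers, S100a9, Lcn2 and Ngp, were negative and not called. The summed signal of the neutrophil markers was 8575 and 8547 with LPS and 4822 and 3284 with thapsigargin in CD14-deficient cells. Cxcr2 was at the lower limit on these 4 arrays. The part of neutrophils in the falls of Hp, Wfdc21, Mmp9 and Camp was not tested.

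Igha, which encodes the heavy chain of IgA, read 384 and 349 with LPS and 3.58 and 3.22 with thapsigargin, below the lower limit, so it was at least 27.3-fold lower (adjusted p = 0.0101). Ighm went from 1789 and 1364 to 74.9 and 193, a change of -3.70 ± 0.49, Igkv8-30 from 759 and 460 to 11.3 and 59.4, and Jchain, the joining chain of secreted antibody, from 171 and 191 to 0.671 and 23.2. The LPS arrays were the highest of the 10 arrays for Igha, Ighm, Igkv8-30 and Jchain. Sequences of immunoglobulin genes are shared among many copies, so the assignment to 1 gene is uncertain. Of the other tested B cell markers, Ms4a1 (CD20) had -2.33, Cd22 -0.57 and Blnk -0.16, none called. Jchain and Ms4a1 were above the pooled median of 99.2 only on the CD14-deficient LPS arrays, so they could enter the test only as falls. The summed signal of the B cell markers was 4579 and 5201 with LPS and 2465 and 2714 with thapsigargin, against 2431 unstimulated. Ebf1 was at the lower limit on the 4 arrays of the comparison. The part of B cells in these falls was not tested.

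Markers of the dendritic cells themselves differed between times. Flt3, the receptor for the growth factor of dendritic cells, read 1149 and 334 with LPS and 53.6 and 67.5 with thapsigargin, a change of -3.37 ± 0.52 (adjusted p = 0.0230), with -4.42 at 48 h and -2.31 at 60 h. Unstimulated cells read 53.8, so the 2 LPS arrays stood above all others. Of the other 14 dendritic cell markers 0 were called, and the list's median was -0.61, with -0.94 at 48 h and -0.20 at 60 h. Irf4 had -1.31 by the probe set used and 2.45 by another one with a highest signal of 478, so its direction was not settled. With the probe set of largest variance Irf4 was called higher. Of 13 macrophage markers 0 were called, with a median of 0.48 at 48 h and -1.09 at 60 h. The complement genes C1qa, C1qb and C1qc had changes of -2.44, -2.66 and -2.02 and were not called, and Aif1, a gene of macrophages and microglia that was not on the list, fell from 1112 and 471 to 55.1 and 49.4.

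Stromal and mast cell markers were few. Fn1, fibronectin, fell from 1340 and 1812 to 493 and 544, a change of -1.59 ± 0.22, and was the only 1 of 5 tested stromal markers to be called. C1s1, a serine protease of the complement system, fell from 242 and 448 to 10.8 and 7.89, at least 24.6-fold. It was above the pooled median of 99.2 only on these LPS arrays, so it could enter the test only as a fall. The stromal marker sum was 2094 and 2620 with LPS and 785 and 948 with thapsigargin, and the part of stromal cells in these falls was not tested. Of 4 tested mast cell and basophil markers 0 were called. Cma1, Mcpt4 and Ms4a2 were at the lower limit on the 4 arrays of the comparison. The 1 tested erythroid marker, Tfrc, had 0.63 ± 0.17 and was not called.

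Of 15 genes of calcium stores and channels 1 was called (6.67% lower, against 3.2% of all genes): S100a6, a calcium-binding protein, which fell from 5429 and 4786 to 2039 and 1843 (-1.39 ± 0.15). Atp2a2 and Atp2a3, which encode the pumps that thapsigargin blocks, had changes of 0.28 and 0.52 and were not called, and Stim1 and Orai1, the sensor and the channel of store-operated entry, had 0.18 and -0.19. Of 18 genes of calcineurin and NFAT signalling 1 was called (5.56% lower): Fgr, a Src family kinase, which fell from 162 and 213 to 52.0 and 40 (-2.02 ± 0.28). Rcan1, an inhibitor of calcineurin that NFAT induces, read 346 and 380 with LPS and 540 and 1297 with thapsigargin, a change of 1.21 ± 0.29 (adjusted p = 0.0618), which just missed the threshold. Both thapsigargin arrays were above both LPS arrays. Wild-type cells had 327 and 494 with LPS and 966 and 1476 with thapsigargin.

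Of 21 genes that NFAT or calcium can induce, 5 rose (23.8%, against 3.43% of all genes) and 1 fell (4.76%, against 3.2%). The median was 0.93 (0.59 at 48 h, 1.04 at 60 h). Without the filter 1 of 30 was called higher and 0 lower, with a median of 0.51. With array weights 4 rose and 1 fell. Beside Gadd45g, Nr4a1 and Ptgs2, the called members were Ier3, an early response gene, which went from 2292 and 3671 to 7139 and 7736, and Fos, which rose by 0.86. Egr2, a zinc finger factor that NFAT is known to induce in T cells, fell from 370 and 2054 to 69.3 and 134, a change of -3.17. The 2 LPS arrays differed widely for Egr2, and both were below the unstimulated 3700. Egr1 had -1.50 and was not called.

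Of 15 tested genes for sensing LPS 0 were called, with a median of -0.02. Tlr4 had 0.05, Ly96, which encodes MD-2, -0.17, Myd88 -0.77 ± 0.20 and Tlr1 -1.22 ± 0.29 (adjusted p = 0.0617). Maturation genes of dendritic cells gave 1 called member of 30 (3.33%, near the 3.43% of all genes that rose), Il15, a cytokine that supports lymphocytes, which rose from 1113 and 455 to 2258 and 1424. Their median was -0.38 at 48 h and 0.42 at 60 h. At 60 h alone 9 of the 30 were at least 2-fold higher and 1 was at least 2-fold lower, against 7.21% and 8.84% of all genes. With the probe set of largest variance 5 of 30 were called higher, and with array weights or without the filter 0 were. Cd40, Cd86 and Ccr7 had -0.10, 1.06 and -0.38, and the probe sets of Cd80 disagreed, with 0.82 for the one used and -0.99 for another.

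Of 18 genes of antigen presentation 1 was called (5.56% lower, against 3.2% of all genes): Cd1d1, which presents lipids and fell from 3238 and 3800 to 1746 and 1593. H2-Aa, H2-Ab1 and Cd74 had changes between -0.09 and 0.10. Of 26 genes of glycolysis and hypoxia 1 was called (3.85% higher, near the 3.43% of all genes): P4ha2, a collagen prolyl hydroxylase, which rose from 55.0 and 125 to 547 and 368. Of 20 genes of sterol and fatty acid synthesis 1 rose and 1 fell (5% each): Fdft1, squalene synthase, rose by 1.13 and Abcg1, a cholesterol exporter, fell, with a change of -1.60. Of 28 lysosomal genes 2 fell (7.14%), the hydrolases Gusb (-2.30) and Glb1 (-1.30), and of 17 Nrf2 targets 0 were called, with a median of 1.10 at 48 h and -0.04 at 60 h. Gusb is also used as a housekeeping gene, and the other 10 tested housekeeping genes did not pass and lay between -0.16 and 0.63.

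The remaining genes with the largest rises came from several classes. Ms4a4c, a membrane protein of the CD20 family, read 232 and 285 with LPS and 3400 and 2455 with thapsigargin, a change of 3.49 ± 0.36. Emp1, an epithelial membrane protein, went from 96.6 and 320 to 1499 and 2454, and the unstimulated array read 2167. Gprc5b, an orphan receptor, went from 17.7 and 35.1 to 198 and 325, and Ackr3, a scavenger receptor for chemokines, from 26.9 and 18.6 to 168 and 295. Tg, which encodes thyroglobulin, a protein made in the thyroid, went from 75.9 and 58.2 to 482 and 881, a change of 3.29 ± 0.35, while wild-type cells read 225 and 373 with LPS. Ackr3 was above the pooled median of 99.2 only on arrays with thapsigargin, so it entered the test through those arrays alone. In Ms4a4c, Emp1, Gprc5b, Ackr3 and Tg the groups did not overlap. These genes were chosen for large rises at both times, which favours such a gap, and its share over all tested genes was not counted.

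Wild-type cells were given the same treatment on 4 arrays of their own. Thapsigargin raised 1 gene there (0.0134%) and lowered 3 (0.0401%): Gpr35, a receptor for kynurenic acid, rose by 2.39 ± 0.20, and Hp, U90926 and Tm4sf1 fell. All 4 were also called, in the same direction, in CD14-deficient cells. The 4 calls stand beside 495 in CD14-deficient cells, but with array weights they were 295 beside 124, and they ran from 0 to 594 when 1 array was left out, so the order of the 2 genotypes was not settled. Without the model, 82 genes (1.1%) were at least 2-fold higher at both times and 130 (1.74%) at least 2-fold lower. Of the 207 genes that were 2-fold higher at both times in CD14-deficient cells, 35 were so in wild-type cells, 16.9% of the first list and 42.7% of the second. For the lower genes 61 were shared, 20.3% and 46.9%. Across both lists 1 gene went 2-fold in opposite directions.

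Most called genes had the same sign in wild-type cells with a smaller size. Of the 256 genes that rose, 224 had a positive change in wild-type cells, where 63.6% of all genes did, and the median was 0.38 against 1.36 in CD14-deficient cells. Of the 239 that fell, 193 were negative in wild-type cells, and the median was -0.33 against -1.61. The change was smaller in wild-type cells for 251 and 224 of them. The genes were chosen on the change in CD14-deficient cells, which by itself favours a smaller value in the other genotype, so these counts do not show that the genotypes differ.

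The difference of the 2 responses was tested directly. It passed for 0 of 7474 genes (0%) in limma, where 994 genes had an unadjusted p under 0.05 and the smallest adjusted p was 0.163. The 8 genes with the smallest p were Hspa1b, Ccl2, Ube2c, Ccrl2, Ccna2, Arrdc4, Csf3 and Hspa1a, with Ube2c under the lower limit on all 4 stimulated wild-type arrays. Ccna2 read 24.1 and 26.6 in wild-type cells with LPS, not far above that limit of 13.4. Csf3 had a change of 2.45 in CD14-deficient cells and of -0.14 in wild-type cells (-0.41 and 0.13), a difference of 2.60 (adjusted p = 0.163). For Arrdc4, an arrestin-like protein that went from 713 and 581 to 2354 and 2292, wild-type cells read between 1589 and 1800 on all 4 stimulated arrays, and a second probe set gave 0.18 in CD14-deficient cells. The test was sensitive to single arrays: 381 genes passed without the CD14-deficient LPS 48 h array, 1899 without the LPS 60 h array and 88 without both CD14-deficient 48 h arrays.

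Finally, the genes that LPS itself raised or lowered with CD14 present were followed. They were chosen on the wild-type LPS and unstimulated arrays, which the comparison does not use, although both calls draw on 1 estimate of each gene's spread, which can favour the same genes in both. LPS raised 575 genes in wild-type cells (7.69%) and lowered 616 (8.24%). Together these were 1191, against 3037 with array weights and from 170, without the wild-type LPS 48 h array, to 3281, without the CD14-deficient LPS 60 h array. Of the 575, thapsigargin raised 143 in CD14-deficient cells (24.9%, against 3.43% of all genes) and lowered 17 (2.96%, near the 3.2% of all genes). Their median change was 0.65 (0.59 at 48 h, 0.67 at 60 h). Of the 616, it raised 0 (against 3.43% of all genes) and lowered 124 (20.1%, against 3.2%), with a median of -0.72 (-0.73 and -0.67). The changes were positive for 480 of the 575 and negative for 545 of the 616, while 50% of all tested genes were positive. In wild-type cells the medians of thapsigargin's change over the same genes were 0.09 and 0.05, but those values share the wild-type LPS arrays with the choice of genes.

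**Figure D5:**
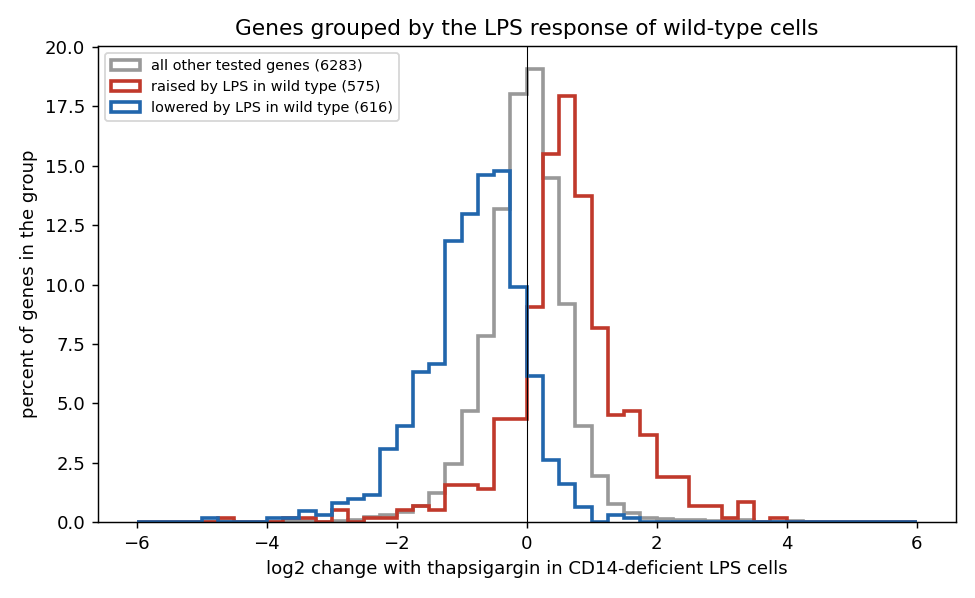
Percent of genes (vertical axis) by log2 change with thapsigargin in CD14-deficient LPS cells (horizontal axis, bins of 0.25), for 575 genes raised by LPS in wild-type cells (red), 616 lowered by it (blue) and the 6283 other tested genes (grey). The red distribution is shifted to higher and the blue one to lower values, around medians of 0.65 and -0.72.

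Levels in the 4 stimulated conditions of these genes were then compared, with arrays shared between the comparisons. For the 575 raised genes, CD14-deficient LPS cells had a median difference of -0.63 from wild-type LPS cells, and CD14-deficient cells with thapsigargin one of 0.01. For the 616 lowered genes these medians were 0.84 and 0.10. CD14-deficient LPS cells were within 2-fold of wild-type LPS cells for 407 of the 575 raised and 352 of the 616 lowered genes, and with thapsigargin for 482 and 577. Such counts were not made over all tested genes. The genes were chosen on the wild-type LPS arrays, which by itself favours a gap from those arrays, so these values do not show a return to wild-type levels. Even without thapsigargin, both CD14-deficient LPS arrays were above both unstimulated arrays for 501 of the 575 raised genes and below them for 548 of the 616 lowered genes. Among the 20 called interferon genes, 12 belonged to the 575. The 17 of the 575 that thapsigargin lowered, a share near that of all genes, included U90926 and Saa3. LPS raised U90926 by 8.19 in wild-type cells, and thapsigargin lowered it in both genotypes. In wild-type cells Saa3 read 380 unstimulated, 10914 and 11204 with LPS and 3009 and 2254 with LPS and thapsigargin.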

How the data were processed

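RNA was measured on 10 1-colour Affymetrix arrays, 1 per condition and time. The deposited value of each probe set was a linear signal intensity that the authors computed with MAS5, per the submitters' processing notes; neither the version nor the scaling target is given in the sources used here. The 2% trimmed means of the deposited intensity columns ran from 444 to 553, so each array was scaled to 509.1. The pooled 25th percentile, 13.4, served as the lower limit before log2. Of 22690 probe sets, 64 were controls, 20380 had 1 gene symbol in the platform table, 691 several and 1619, controls included, none; 20351 matched RefSeq (GRCm38.p6, names and promoters only). Where a gene had several probe sets, the one with the highest mean signal was used, and 7474 of 12393 genes were above the pooled median, 99.2, on at least 2 arrays. C1s1, Jchain and Ms4a1 were above it only on the CD14-deficient LPS arrays. Ackr3 was above it only on the arrays with thapsigargin. Flt3, Gbp2b and Igkv8-30 were above it only on those and a single other array. Fold changes against a group at the lower limit on all its arrays are lower bounds: the mean of the higher group over that limit.

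All 10 arrays were fitted per gene in limma 3.58.1 (R 4.3.3), with 6 levels of genotype and treatment and a term for time, eBayes with an intensity trend, 3 residual and 2.95 prior degrees of freedom. Tests were two-sided, and each condition's spread was taken as equal. P-values measure only the spread between these arrays. No array was left out, and the number of arrays limits the precision. Alternatives were scaling, the lower limit, the filter, the probe set, the trend, array weights, the time term and leaving arrays out.

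The genes, gene lists and tests were chosen with earlier results of these data known, so list counts are not independent evidence. Named genes were the 12 largest called rises and falls that were 2-fold at both times, up to 4 members of each list by p, all members of the followed-up and proapoptotic lists, the 8 genes with the smallest p for the difference between genotypes, and the 6 largest changes among genes raised by LPS; all called list members, and uncalled members, genes near the threshold and genes called in wild-type cells that are named in the text, were added after their values were seen.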

Additional observations from a re-analysis of the deposited data

Results flagged for a closer look

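In 21 genes named by rule or in the text, 11 of them called in CD14-deficient cells and 10 not, both CD14-deficient pairs of arrays differed one way with thapsigargin and both wild-type pairs the other way. Whether the genotypes differ was tested per gene in limma and did not pass for any of the 21 (adjusted p from 0.163 to 0.656); among the 7474 genes tested 0 passed. The difference of the log2 changes, CD14-deficient minus wild type, was 3.61 for Hspa1b, 3.44 for Hspa1a, 3.31 for Ccl7, 2.39 for Ccl2, 1.93 for Arrdc4, 0.99 for Hsph1 and 0.99 for Fos, which rose in CD14-deficient cells. It was -3.69 for Flt3, -2.92 for Ccna2, -2.14 for Birc5 and -2.07 for Fn1, which fell there. The wild-type changes at 48 and 60 h were small for Arrdc4 (-0.14 and -0.02), Birc5 (0.02 and 0.12), Ccna2 (0.26 and 0.19), Fos (-0.16 and -0.10) and Hsph1 (-0.04 and -0.13). They were larger at 1 or both times for Hspa1b (-0.86 and -1.23), Ccl7 (-0.08 and -1.22), Ccl2 (-0.40 and -0.46), Fn1 (0.27 and 0.69), Hspa1a (-0.25 and -1.30) and Flt3 (0.13 and 0.52). With LPS alone wild-type cells read 24.1 and 26.6 for Ccna2 and 38.3 and 42.7 for Birc5. The lower limit of 13.4 left little room for a fall of these 2 genes there.

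Among the 10 genes that were not called, the difference was positive for Adm (3.06), Tnfrsf21 (1.36), Gsk3b (0.97), Mcoln1 (0.56), Tollip (0.40) and Stim1 (0.33). It was negative for Irf4 (-2.39), Mx1 (-2.16), Htra2 (-1.60) and Gbp2 (-0.51). Adm, which encodes adrenomedullin, had changes of 1.76 and 1.24 in CD14-deficient and of -1.35 and -1.77 in wild-type cells.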

How the results depend on the processing

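The 495 genes called for thapsigargin in CD14-deficient cells became 153 without the filter (87 higher, 66 lower), 124 with array weights, 174 on the 4 arrays alone and 1190 without both CD14-deficient 48 h arrays, and ran from 0 to 2894 when 1 array was left out. The difference between genotypes gave 0 calls, 5 without the filter, 2 without the trend, 88 without both CD14-deficient 48 h arrays and from 0 to 1899 when 1 array was left out. The wild-type response gave 4 calls, 17 on deposited values, 7 without the filter, 12 without the trend, 295 with array weights, 9 without the time term, 6 with a pseudocount of 16 in place of the lower limit, 376 without both CD14-deficient 48 h arrays and from 0 to 594 when 1 array was left out. The LPS response of wild-type cells gave 1191 calls, 3037 with array weights, 2708 without both CD14-deficient 48 h arrays and from 170 to 3281 when 1 array was left out. The 508 genes 2-fold changed at both times were 333 with a signal above the median required on 6 arrays; counted at 60 h alone they were 1200 and at 48 h alone 1586, an alternative chosen after seeing the data. The cause of these shifts was not tested.

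With the probe set of largest variance, the changes reversed to 2.31 for Bcl2l11 and 2.45 for Irf4, and both were called higher. All 71 called genes named by rule kept their direction, with an unadjusted p under 0.05, in each alternative that kept them (55 under the stricter filter, 70 with the other probe set rule). They were called again in 27 cases without the filter, 49 with array weights, 54 on the 4 arrays alone and 0 without any 1 thapsigargin array. The change itself stayed the same without the trend, with array weights, without the time term, on the 4 arrays alone and without a wild-type array. In those fits the direction could not differ, and the 71 genes were chosen from these same data. On deposited values 173 genes rose and 192 fell. Arrays were paired only by harvest time, through the time term, and without it 489 genes were called; the labels give no replicate numbers. Signals near 13.4 may be background.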
